A study of Mus musculus with 8 samples.

Results

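Vomeronasal type 1 receptor genes are the mouse autosomal protein-coding genes whose symbol is Vmn1r followed by a number. Of 21627 protein-coding genes placed on the 20 measured chromosomes, 230 met that rule, and they lay on 7 autosomes. A timing score could be given to 160 of them, and 70 had no measured window in the gene or within 50 kb of it. The 4 profiles describe E14Tg2a mouse embryonic stem cells (or a subclone, which the labels do not name) of male 129/Ola origin, in which the chromatin protein CTCF carries an auxin-inducible degron. Both groups carry the degron. Auxin cells were kept for 2 days in medium with 500 µM indole-3-acetic acid, an auxin analog, and control cells were kept without it, with 2 replicates per group. Behind each profile stand 2 libraries of BrdU-labelled DNA, from early and from late S phase, or 8 libraries in all. No cells without the degron were given auxin, so auxin itself and loss of CTCF cannot be told apart. Nothing in the labels says that replicates were separate cultures, so the spread behind each p-value may be technical only. The files hold neither read counts nor expression, so the depth of a profile is unknown, the extent of CTCF loss was not measured, and the labelled cell type could not be checked against markers.

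Vomeronasal type 1 receptors are G protein-coupled receptors of sensory neurons in the apical layer of the vomeronasal organ, where they detect small, mostly volatile pheromones and steroid derivatives. Each such neuron expresses essentially one of these genes, and the receptors signal through the G protein subunit encoded by Gnai2 and the ion channel encoded by Trpc2. The genes have a single coding exon and lie in tandem arrays that arose by repeated duplication, and stem cells are not a site of their known function. Replication timing is the point in S phase at which a stretch of DNA is copied: gene-rich, active chromatin is mostly copied early, and silent, gene-poor chromatin at the nuclear lamina mostly late. CTCF binds insulator sites and, with cohesin, anchors chromatin loops.

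The stretches of 250 bases before 5 annotated gene starts show how different, or how alike, these genes are at the sequence level. They were taken from RefSeq (GRCm38.p6, the coordinates of mm10) and are written 5′ to 3′ on the gene's own strand, with capitals marking CG dinucleotides and the letters TATAAA on either strand (TTTATA when reversed). Vmn1r1 is shown as the earliest replicating member (chr1:182158099-182158348, minus strand). Vmn1r48 (chr6:90036842-90037091, minus strand) and Vmn1r50 (chr6:90107025-90107274, plus strand) come from cluster 6C, an array described in depth further on. Vmn1r93 (chr7:20139089-20139338, minus strand) has no timing score and shares all 250 letters with 3 other members. Vmn1r185 (chr7:26612079-26612328, minus strand) comes from cluster 7E, a pair of genes described with it.
Vmn1r1: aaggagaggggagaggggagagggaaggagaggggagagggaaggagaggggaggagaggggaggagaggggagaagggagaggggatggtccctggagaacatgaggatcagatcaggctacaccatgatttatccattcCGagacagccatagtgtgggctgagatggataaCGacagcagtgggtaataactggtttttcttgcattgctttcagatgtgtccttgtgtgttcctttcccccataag
Vmn1r48: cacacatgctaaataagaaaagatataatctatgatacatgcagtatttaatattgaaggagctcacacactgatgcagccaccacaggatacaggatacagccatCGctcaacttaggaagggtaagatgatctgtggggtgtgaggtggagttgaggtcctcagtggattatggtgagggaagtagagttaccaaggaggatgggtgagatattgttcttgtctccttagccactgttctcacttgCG
Vmn1r50: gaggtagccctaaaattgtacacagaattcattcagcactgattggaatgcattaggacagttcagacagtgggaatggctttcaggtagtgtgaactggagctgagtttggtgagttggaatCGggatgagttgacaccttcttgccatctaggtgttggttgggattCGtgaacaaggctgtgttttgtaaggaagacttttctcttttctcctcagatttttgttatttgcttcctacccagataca
Vmn1r93: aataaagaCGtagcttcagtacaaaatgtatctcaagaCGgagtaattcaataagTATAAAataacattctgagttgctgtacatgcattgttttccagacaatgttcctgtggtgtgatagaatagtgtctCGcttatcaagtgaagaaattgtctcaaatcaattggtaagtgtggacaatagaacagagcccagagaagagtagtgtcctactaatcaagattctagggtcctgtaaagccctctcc
Vmn1r185: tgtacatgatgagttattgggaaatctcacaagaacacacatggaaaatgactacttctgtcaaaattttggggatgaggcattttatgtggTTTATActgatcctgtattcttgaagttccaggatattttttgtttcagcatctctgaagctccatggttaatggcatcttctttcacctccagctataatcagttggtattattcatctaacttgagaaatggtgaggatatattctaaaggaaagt

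Such a stretch was found for 205 of the 230 members, and in 180 of these the annotated gene begins with ATG, so the stretch precedes the coding sequence rather than a mapped transcription start. Over all 26794 genes with such a stretch only 1691 begin with ATG, so the comparisons of letters that follow set stretches before a coding start against stretches mostly before a transcription start. The members' stretch was poor in CG dinucleotides, with a median of 1 and a range of 0 to 5, against a median of 6 over all genes. The median GC content was 34.8%, against 52.4% over all genes. TATAAA, searched on both strands, occurred in 39.5% of the members' stretches and in 13% of all genes' stretches. The 205 stretches are not separate sequences, since 54 are identical to another member's and 77 at least 95% identical. TATAAA occurred in 54.5% of the stretches of members without a score and in 33.3% for members that overlap a window. It occurred in 0 of 14 stretches in cluster 6C and in 14 of 24 in cluster 6A, another array. A core of the CTCF motif (CCA, any 2 letters, AG, any 2 letters, GGC), searched on both strands, occurred in 0 of the 205 stretches and in 2.08% of all genes' stretches, so no member's stretch held both motifs. The absence of these letters from the window says nothing about CTCF binding.

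Vomeronasal type 1 receptor genes carried late scores. A higher score means earlier replication, a direction taken from the authors' early-to-late list, whose 63 regions all have lower scores with auxin. The sources used here do not give the log base of the score. The median score over the 160 members was -1.60 and -1.61 in the 2 auxin profiles, against -1.67 and -1.82 in the 2 control profiles. Over all 21074 protein-coding genes with a score, the corresponding medians averaged 1.84 ± 0.011 in auxin and 1.88 ± 0.012 in control cells (SD, n = 2 each). The receptor median therefore fell between percentiles 12.9 and 15.1 of all genes in the 4 profiles, and 155 of the 160 members were below the median of all genes.

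By the mean of the 4 profiles, 122 members were late (below -0.5), 20 were middle and 18 were early (above 0.5). The late share was 76.2%, against 23.9% of all genes. It was 71.2% for the 104 scored type 2 vomeronasal receptors (Vmn2r genes, the receptors of the basal layer) and 77.6% for the 1098 scored olfactory receptors (Olfr genes). In each of the 4 profiles the median of the type 1 receptors was higher than that of the type 2 receptors, which averaged -1.76 ± 0.065 in auxin and -2.00 ± 0.045 in control cells (SD, n = 2 each). It was also higher in each profile than that of the olfactory receptors, at -1.93 ± 0.011 in auxin and -2.02 ± 0.074 in control cells. These orders are descriptions of gene families in the same libraries and carry no test. Coverage is unlike as well: 70 type 1 receptors, 18 type 2 receptors and 2 olfactory receptors had no score. The type 1 median, as the mean over the profiles, was -1.67 for all scored members and -1.50 for those that overlap a window.

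Most members rest on little data, because the genes are short. The median gene was 924 bp long (range 870 to 33695 bp) and the windows lie on a 6-kb grid. Of the scored members, 109 overlapped 1 window, 26 overlapped 2, and 3 overlapped 3 or more. The other 22 took the nearest window within 50 kb, and the 160 members shared 158 distinct sets of windows. Vmn1r24 and Vmn1r25 shared 1 window, and so did Vmn1r91 and Vmn1r240. In and around cluster 6C, scores mostly changed little from one window to the next. Neighbouring genes, and neighbouring stretches of an array, therefore repeat much of the same signal and do not count as separate evidence.

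Members no more than 1 Mb from the next were grouped into 11 clusters, named by chromosome and by a letter in order along it, and 3 members lay alone. Cluster 6A (chr6:56923914-58472878) holds 28 members, cluster 6B (chr6:66552183-66805332) 8, and cluster 6C (chr6:89711261-90270053) 15. On chromosome 7, cluster 7A (chr7:94186-172761) holds 2 members, 7B (chr7:5146490-6011010) 11, 7C (chr7:10273828-13220289) 24, 7D (chr7:20101158-24055691) 86 and 7E (chr7:26266831-26612078) 2. Cluster 13A (chr13:22087878-23250323) holds 35 members, 17A (chr17:20419163-21314886) 14 and 4A (chr4:3172083-3185305) 2. Cluster 7A precedes the first window of its chromosome and has no score.

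**Figure D1:**
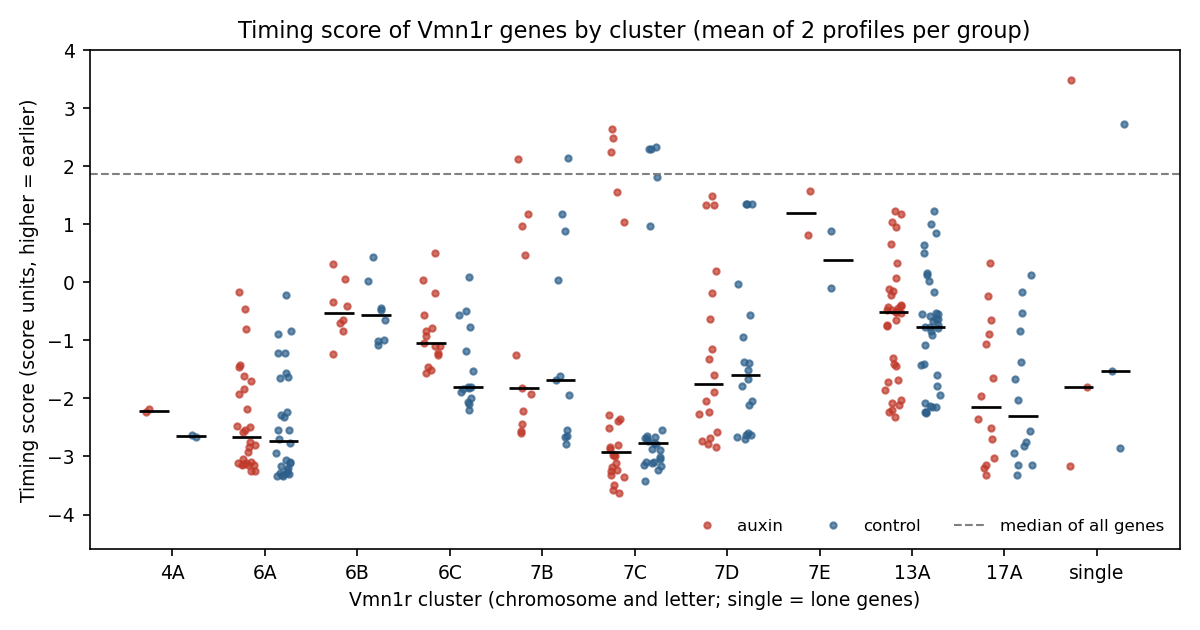
Timing score (y axis, score units, higher is earlier) of the 160 scored members by cluster (x axis), as auxin and control means of 2 profiles each. Points are genes, placed side by side at random within a group, bars are group medians and the dashed line is the median of all genes. Most members lie below -0.5, while 7B, 7C, 7D, 7E and 13A also hold members above 0.5.

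The clusters differed in timing, and most of them spanned several score units from one gene to another. By the median of the members' 4-profile means, the order from late to early was 7C (-2.88), 6A (-2.74), 4A (-2.43), 17A (-2.22), 7B (-1.88), 7D (-1.70), 6C (-1.50), 13A (-0.64), 6B (-0.56) and 7E (0.79). Neighbours in this order overlap in their members' ranges, so the order is one of medians only. The range from the latest to the earliest member was 5.86 in 7C, 4.81 in 7B, 4.18 in 7D, 3.49 in 17A, 3.44 in 13A, 3.08 in 6A, 2.13 in 6C and 1.48 in 6B.

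The spread followed position along the chromosome. In 17A the first member, Vmn1r224, had -2.87 and -3.19 in auxin cells, against -3.11 and -2.52 in control cells. The last member, Vmn1r237, had 0.48 and 0.19 in auxin cells, against -0.00 and 0.25 in control cells, and the 4-profile means were in order from Vmn1r226 (the latest, -3.26) to Vmn1r237 (0.23) without exception. The means thus climbed at each of 11 consecutive steps of this array in the direction of the early neighbouring DNA, whose next 250 kb averaged 1.38 ± 0.14 in auxin and 1.31 ± 0.13 in control cells (SD, n = 2 each). Steps between neighbours are not separate evidence.

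In 13A both ends were early and the middle late. Vmn1r188, the first gene, had 1.22 and 1.12 in auxin cells, against 1.50 and 0.96 in control cells. Vmn1r202, the latest of the 35, had -2.21 and -2.44 in auxin cells, against -2.47 and -1.84 in control cells. Vmn1r223, the last gene, had 1.10 and 1.35 in auxin cells, against 1.12 and 0.58 in control cells, so in both groups the array formed a late trough between early flanks. The 250 kb on its left averaged 2.37 ± 0.034 in auxin and 2.53 ± 0.31 in control cells, and those on its right 2.25 ± 0.011 in auxin and 2.19 ± 0.12 in control cells (SD, n = 2 each).

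Cluster 7B was also late between early flanks, with Vmn1r55 at its start at 1.92 and 2.32 in auxin cells, against 1.73 and 2.54 in control cells. Near its right end it was not early: chr7:5950001-6000000 had -0.37 and 0.12 in auxin cells, against -0.41 and -0.39 in control cells. The 250 kb beyond averaged 1.60 ± 0.0093 in auxin and 1.65 ± 0.12 in control cells (SD, n = 2 each). The latest member of 7B, Vmn1r61, had -2.68 and -2.45 in auxin cells, against -2.69 and -2.89 in control cells. In 6A only 1 of the 28 members, the first gene Vmn1r4 (-0.28 and -0.07 in auxin cells, against -0.33 and -0.11 in control cells), was not late. The latest there was Vmn1r15, at -3.53 and -2.98 in auxin cells, against -3.00 and -3.62 in control cells. Cluster 6B ran from Vmn1r32 (-1.15 and -1.32 in auxin cells, -0.87 and -1.10 in control cells) to Vmn1r39 (0.22 and 0.42 in auxin cells, 0.37 and 0.50 in control cells), with higher 4-profile means at each gene than at the one before it.

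Cluster 7C was divided into 19 late members, Vmn1r66 to Vmn1r84, and 5 early ones, Vmn1r85 to Vmn1r89. Its latest member, Vmn1r81, was also the latest of all 160, with -3.70 and -2.95 in auxin cells, against -3.21 and -3.65 in control cells. Vmn1r85, which like Vmn1r89 encodes a receptor that responds to sulfated steroids, had 2.68 and 2.59 in auxin cells, against 2.26 and 2.39 in control cells. Vmn1r89 had 0.87 and 1.22 in auxin cells, against 0.83 and 1.10 in control cells. In none of the 4 profiles did an early member fall below 0.83 or a late member exceed -1.90. The groups were split by the mean of these same 4 profiles. Their separation on that mean was therefore fixed in advance and is no support for the division.

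**Figure D2:**
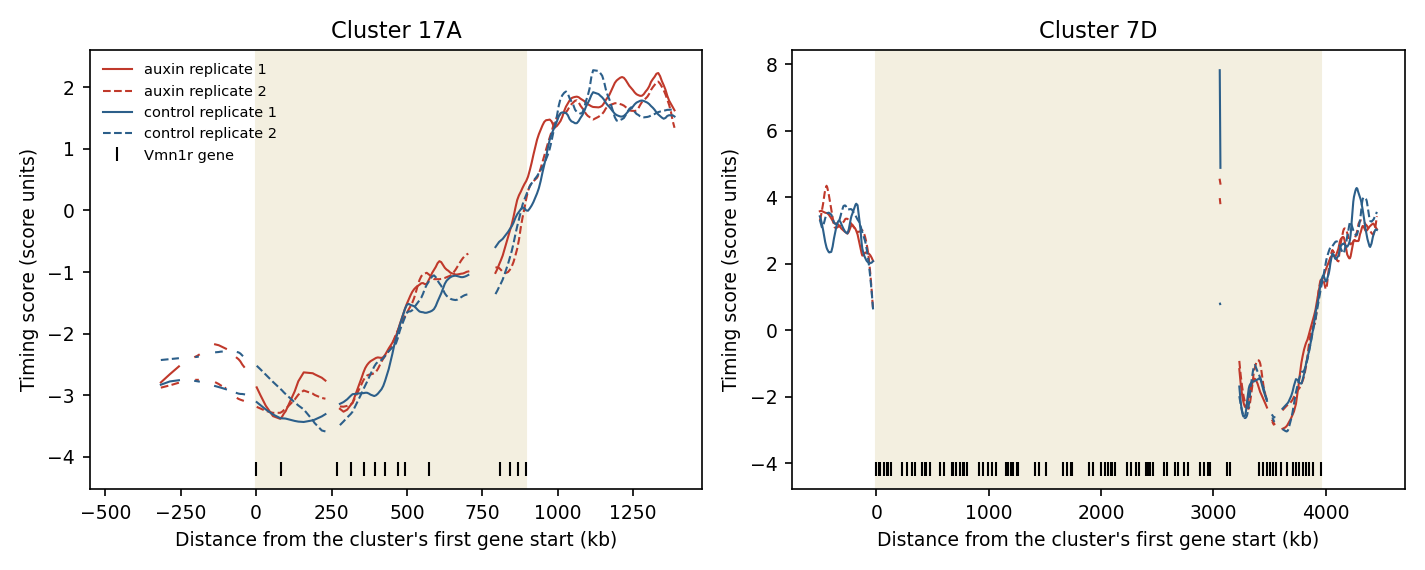
Timing score (y axis, score units) of the windows in clusters 17A and 7D (shaded) and the DNA around them by distance from the first gene start in kb (x axis), with a line for each of the 2 auxin and 2 control profiles, broken where windows are missing, and ticks for members. Scores climb along 17A toward its right flank, and 7D is without windows over a stretch of 3078 kb that holds 68 members.

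Of the 3 solitary genes, Vmn1r1 on chromosome 1 (182157178 to 182158098, gene ID 625823) was the earliest of all members. It had 3.53 and 3.46 in auxin cells, against 2.75 and 2.69 in control cells, and was at percentile 75.6 of all genes by its 4-profile mean. Vmn1r90 on chromosome 7 had -3.12 and -3.21 in auxin cells, against -2.85 and -2.85 in control cells. Vmn1r238 on chromosome 18 had -2.05 and -1.56 in auxin cells, against -1.02 and -2.04 in control cells, so its groups overlap, unlike those of the other 2.

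The members without a score came almost entirely from 1 stretch of cluster 7D, where most copies were nearly alike. Windows overlapped 60% of the type 1 receptor genes, against 74.6% of type 2 receptors, 79.5% of olfactory receptors and 92.5% of all genes. Of the 70 members without a score, 68 lay in one windowless stretch of 3078 kb in cluster 7D (chr7:20076000-23153999), and the other 2 formed 7A. Only 13.2% of the grid steps in 7D held a window, against 97.7% in 6B, 97.9% in 6C and 100% in 7E.

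Of the 66 members without a score that have an upstream stretch, 52 shared all 250 letters with at least 1 other member, as Vmn1r93 does with Vmn1r114, and 65 were at least 95% identical to another. The exception, Vmn1r148, was 66% identical to its closest member. All 66 lie in the windowless stretch of 7D, so they describe 1 locus and are not separate cases. Of the 120 that overlap a window, 2 were identical to another member (Vmn1r47 and Vmn1r48) and 8 were at least 95% identical. Of the 19 with only a nearby window, 4 were at least 95% identical to another member. The median identity to the nearest other member was 100% for members without a score and 73.4% for those that overlap a window. The sources used here do not say how reads from near-identical copies were treated, and whether that accounts for the missing windows was not tested. Scores of members with close copies, Vmn1r47 and Vmn1r48 among them, may rest on reads shared between copies.

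**Figure D3:**
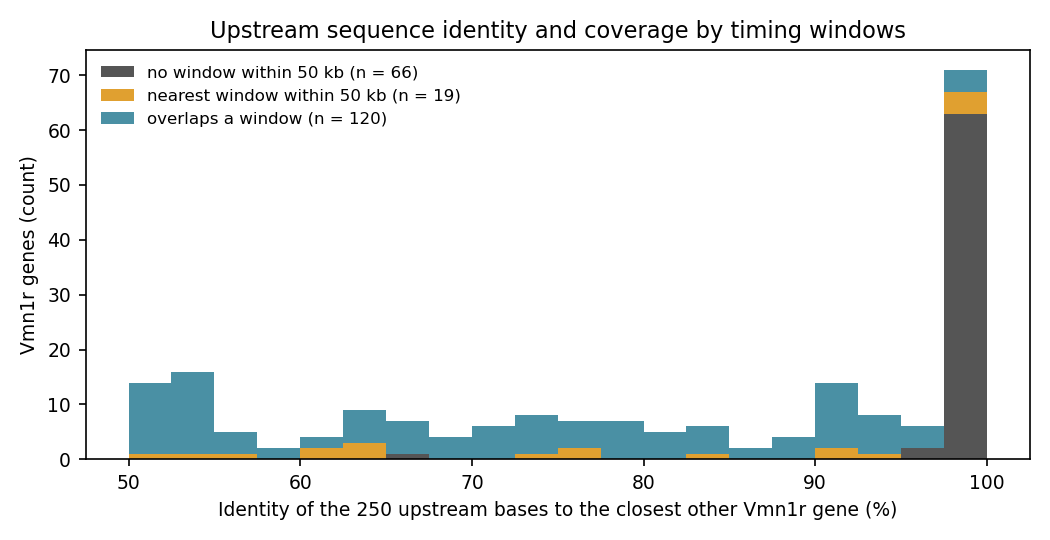
Stacked histogram of members (y axis, count) by the identity in percent of their 250 upstream bases to the closest other member (x axis), for 66 members with no score, 19 with only a nearby window and 120 that overlap a window. Members without a score stand almost entirely in the bar that ends at 100%, and those that overlap a window spread over the axis around a median of 73.4%.

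The auxin profiles were set against the control profiles to ask if acute depletion of CTCF shifts the time at which these receptor arrays replicate. No single receptor gene passed the test, and neither did any other of the 21074 scored genes. Of 154 bins of 50 kb in the clusters 1 was called earlier, in 7E, a share near the 0.637% of all bins, and the call was lost with any 1 profile left out. The cluster means were higher with auxin by 0.84 in 7E and by 0.55 in 6C, and differences in the other clusters lay between -0.077 and 0.43. The fit was limma over all genes, or over all 50-kb bins with at least 3 windows, with Benjamini-Hochberg adjusted p under 0.05.

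Over the 160 members the median difference, auxin minus control, was 0.12, against -0.00043 over all genes, 0.21 over type 2 receptors and 0.11 over olfactory receptors. Above 0 were 105 members (65.6%), against 49.9% of all genes. Both auxin profiles were higher than both control profiles at 48 members (30%, against a background of 23.9% of all genes) and lower at 21 (13.1%, against 25.9%). No member was called earlier or later, as 0% of all genes were in either direction, and the smallest adjusted p of a member was 0.172. At an unadjusted p under 0.05 stood 14 members (8.75%), against 17.1% of all genes, a smaller share than the background. With a trended, robust variance 20 members (12.5%) had an unadjusted p under 0.05, against 20.3% of all genes. In that fit 4 members were called earlier, Vmn1r48, Vmn1r49, Vmn1r50 and Vmn1r52, all in 6C, and 0 later, where 2.01% of all genes were called earlier and 3.3% later. None of the 4 was called in every version of that fit with 1 profile left out, an alternative added after the data were seen. Such a version leaves 1 profile in a group. The share of all genes it called is not given here, so the loss cannot be set against a background.

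**Figure D4:**
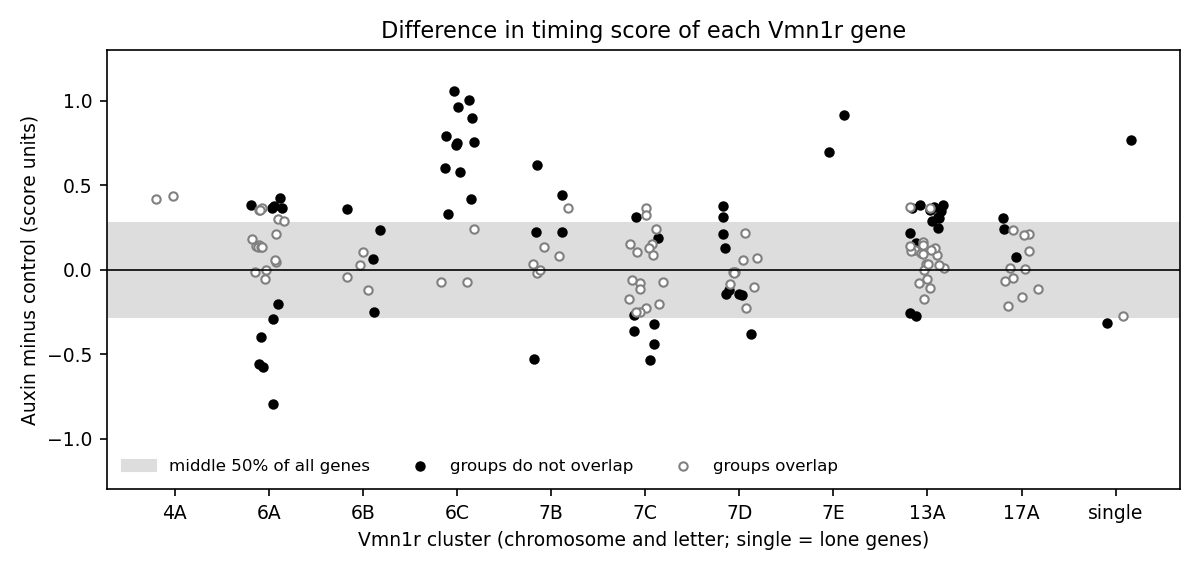
Difference in timing score, auxin minus control (y axis, score units), of the 160 scored members by cluster (x axis); filled points are genes whose groups do not overlap, open points those whose groups overlap, and the grey band holds the middle 50% of all genes. Members lie above 0 in 13 of 15 cases in 6C, up to 1.06, in 9 of 11 in 7B and in 28 of 35 in 13A. Of all genes 49.9% lie above 0, and every cluster with 8 or more members holds genes on both sides of 0.

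Cluster 6C holds the receptors once named V1ra and V1rb: all 15 members have such an older symbol. Mice that lack most of this array show altered maternal and mating behaviour. The mean score over its windows was -0.86 and -0.99 in auxin cells, against -1.42 and -1.53 in control cells, so that the groups did not overlap. The difference was 0.55, and it lay between 0.49 and 0.61 with any 1 profile left out. An exact permutation test of 2 against 2 profiles cannot give a p below 0.333, which was the value here (two-sided; 0.476 adjusted over 10 clusters). Of the 15 members, 13 had a positive difference, where 49.9% of all genes did. At 12 both auxin profiles were higher than both control profiles, where this held at 23.9% of all genes. Being neighbours, the 15 are not separate evidence. The median member difference was 0.74.

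The difference was uneven along the array. Vmn1r40, the first gene, had -0.49 and -0.63 in auxin cells, against -0.40 and -0.58 in control cells, and its groups overlapped. Vmn1r44 (gene ID 113854) had the largest difference of all members, with -0.81 and -1.27 in auxin cells, against -1.67 and -2.53 in control cells (difference 1.06, SE 0.33, limma adjusted p = 0.207). With a profile left out the difference ran from 0.63, without the second control replicate, to 1.49, without the first, so its rank among members is not firm. Vmn1r48 had -1.04 and -1.16 in auxin cells, against -1.80 and -1.98 in control cells (difference 0.79, SE 0.20, limma adjusted p = 0.175). Its near neighbour Vmn1r47, with the same 250 upstream letters, had -1.12 and -1.32 in auxin cells, against -1.82 and -1.77 in control cells.

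Vmn1r49 (V1rb2, gene ID 24112), whose product responds to the urinary ketone 2-heptanone, had -1.23 and -0.97 in auxin cells, against -2.12 and -2.00 in control cells (difference 0.96, SE 0.21, limma adjusted p = 0.172). Vmn1r50 (V1rb1, gene ID 113852) had -0.90 and -0.94 in auxin cells, against -1.72 and -1.93 in control cells (difference 0.90, SE 0.21, limma adjusted p = 0.172). Vmn1r52 (gene ID 113849) had -0.12 and -0.23 in auxin cells, against -1.40 and -0.96 in control cells (difference 1.00, SE 0.23, limma adjusted p = 0.172). At each of these 3 genes both auxin values were well above both control values, and the gap between the groups exceeded the gap between replicates of either group. In the trended, robust fit their adjusted p-values were 0.0276, 0.0283 and 0.0184 in that order.

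In 50-kb bins the same array was higher over a run of 5 consecutive bins (chr6:90000001-90250000). The run was defined by differences above 0.5, so that each bin exceeds 0.5 was set in advance. On its left a bin at 0.41 parted it from bins at 0.79 and 0.83. The groups overlapped in none of the 5, and 26.4% of all bins had both auxin profiles higher. How often such runs occur over all bins is not given here. Consecutive bins are not separate evidence either. The run averaged -0.59 and -0.66 in auxin cells, against -1.37 and -1.47 in control cells, and holds 7 members and V1ra8, a receptor gene whose symbol lies outside the rule. Its largest bin difference was 0.96, at chr6:90050001-90100000, which covers Vmn1r49. That bin had -1.16 and -0.95 in auxin cells, against -2.03 and -2.01 in control cells, and just missed the threshold (SE 0.21, limma adjusted p = 0.0508).

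The 250 kb before 6C went the other way. They averaged -0.26 and -0.23 in auxin cells, against 0.49 and 0.26 in control cells, a difference of -0.62 in groups that do not overlap. The 250 kb after the array averaged 1.91 and 1.84 in auxin cells, against 1.81 and 1.54 in control cells. In control cells the score therefore dropped by more on entering the array from its left side than in auxin cells, and the control profiles held the deeper trough.

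**Figure D5:**
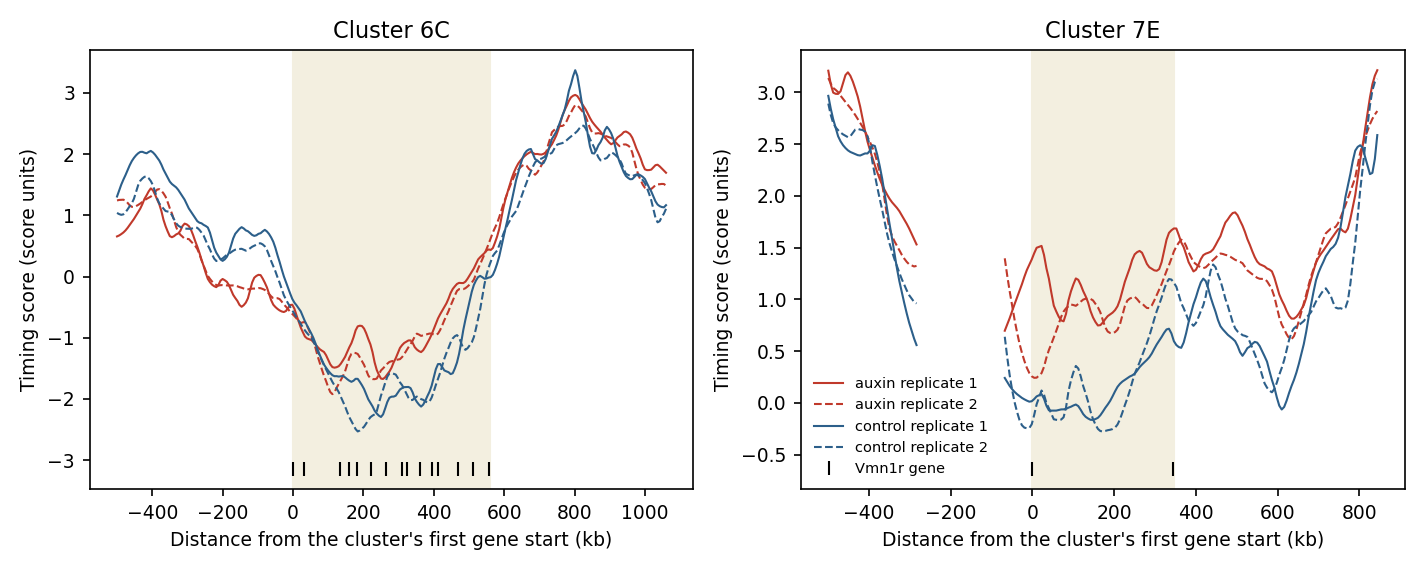
Timing score (y axis, score units) by distance from the first gene start in kb (x axis) at clusters 6C and 7E (shaded) and around them, with a line for each of the 2 auxin and 2 control profiles and ticks for members. Auxin profiles lie above control profiles over much of the right part of 6C and across 7E, and below them just left of 6C.

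Cluster 7E consists of Vmn1r184 and Vmn1r185 with 345 kb between the outer ends. Its windows averaged 1.16 and 0.87 in auxin cells, against 0.15 and 0.20 in control cells, a difference of 0.84 that lay between 0.69 and 0.99 with any 1 profile left out. The groups did not overlap (two-sided exact permutation p = 0.333, 0.476 adjusted over 10 clusters). Vmn1r184 (gene ID 100312477) had 1.38 and 0.26 in auxin cells, against 0.02 and -0.21 in control cells (difference 0.92, SE 0.37, limma adjusted p = 0.279), and its 2 auxin values were far apart. Without the first auxin replicate its difference was 0.35, and without the second it was 1.48. Vmn1r185 (gene ID 171265) had 1.68 and 1.46 in auxin cells, against 0.60 and 1.16 in control cells (difference 0.70, SE 0.26, limma adjusted p = 0.250), and its difference was 0.41 without the first control replicate.

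Between these genes the bin chr7:26400001-26450000 had 0.82 and 0.89 in auxin cells, against -0.12 and -0.20 in control cells. It replicated earlier with auxin, by 1.01 (SE 0.21, limma adjusted p = 0.0469). It was the only one of 154 cluster bins called earlier, where 0.637% of all 42710 bins were, and 0 cluster bins were called later, where 1.02% of all bins were. The bin holds no receptor gene, and it was not called with any 1 profile left out (limma adjusted p between 0.0633 and 0.176 for the lowest cluster bin). It sat in a run of 7 bins (chr7:26200001-26550000), again defined by differences above 0.5. The run averaged 1.09 and 0.77 in auxin cells, against 0.053 and 0.0078 in control cells. The run covers Vmn1r184 and 5 other genes, the cytochrome P450 genes Cyp2b9 and Cyp2a4 and the NLR family genes Nlrp9c, Nlrp4a and Nlrp9a. Both flanks of 7E were also higher with auxin, by 0.83 before the cluster (12 windows) and 0.71 after it (41 windows). The difference thus extends past the receptors.

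Of the 154 cluster bins, 51 (33.1%) had both auxin profiles above both control profiles, where 26.4% of all bins did, and 15 (9.74%) had both below, where 26.1% of all bins did. Bins with groups apart and differences of similar size to those in 6C also lay in 7D (0.73), 6A (-0.64) and 7C (0.64), with limma adjusted p-values of 0.0947, 0.119 and 0.173 in that order. At an unadjusted p under 0.05 stood 21 cluster bins, or 13.6%, against 21.7% of all bins. With the trended, robust variance 14 cluster bins were called earlier, 6 of them in 6C, 6 in 7E and 1 each in 7C and 7D, where 5.17% of all bins were, and 0 were called later, where 5.66% of all bins were. With the replicate number as a block 9 cluster bins were called earlier, 4 in 6C and 5 in 7E, and 0 later, where 2.5% and 3.02% of all bins were. In 100-kb bins 4 were called earlier, 2 in 6C and 2 in 7E, and 0 later, where 3.36% and 4.01% of all such bins were.

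In the other clusters the differences of the means were lower than in 6C and 7E. They were 0.43 in 4A, which has 2 windows, 0.18 in 7B, 0.16 in 17A, 0.13 in 13A, 0.12 in 7D, 0.054 in 7C, 0.041 in 6B and -0.077 in 6A. The mean of 7C covers a span with 29 other genes, 14 of them earlier than every member. That span averaged -0.88 over the 4 profiles, against a member median of -2.88, and the median member difference in 7C was -0.076. The exact permutation p was 0.333 for 13A, 17A, 6A, 6B and 7B, whose groups did not overlap, and 0.667 for 4A, 7C and 7D, whose groups overlapped. With a profile left out they ran from 0.11 (without the first auxin replicate) to 0.75 (without the second) in 4A, from 0.089 (without the first) to 0.22 (without the second) in 17A, from 0.070 (without the second) to 0.19 (without the first) in 13A and from 0.011 (without the second) to 0.071 (without the first) in 6B. The sign in 7D depended on the second control replicate, without which the difference was -0.0060. The mean of 7D includes 2 windows next to the windowless stretch whose highest scores ran from 3.97 to 4.52 in auxin and from 0.83 to 7.81 in control cells, and without these 2 windows, an alternative added after the data were seen, its difference was 0.11. In 4A, Vmn1r2 had -1.91 and -2.57 in auxin cells, against -2.46 and -2.85 in control cells, and Vmn1r3 had values within 0.1 of those in each profile.

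Differences among single genes of these clusters ran both ways. The most negative was at Vmn1r28 in 6A (gene ID 171198), with -3.18 and -3.06 in auxin cells, against -2.44 and -2.21 in control cells (difference -0.79, SE 0.21, limma adjusted p = 0.177). The 250 kb after 6A were likewise lower with auxin, at -1.07 and -0.93, against -0.36 and 0.035 in control cells. In the same array Vmn1r6 had -0.61 and -0.98 in auxin cells, against -1.24 and -1.20 in control cells, a difference of 0.42 (0.24 to 0.61 with a profile left out). Array 6A thus held differences of both signs at its opposite ends.

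In 7B, Vmn1r59 had -1.89 and -1.94 in auxin cells, against -2.18 and -2.89 in control cells (difference 0.62, from 0.26 without the second control replicate to 0.97 without the first), and Vmn1r63 had -2.17 and -2.26 in auxin cells, against -1.89 and -1.49 in control cells (difference -0.53, from -0.33 without the second control replicate to -0.73 without the first). In 7C, Vmn1r71 had the most positive difference (0.36, but -0.030 without the first auxin replicate), with -1.90 and -2.68 in auxin cells, against -2.80 and -2.50 in control cells, and Vmn1r79 the most negative (-0.53, from -0.33 without the first control replicate to -0.73 without the second), with -3.48 and -3.78 in auxin cells, against -2.89 and -3.29 in control cells. In 7D, Vmn1r180 had -0.07 and -0.32 in auxin cells, against -0.57 and -0.57 in control cells (difference 0.38). The most negative difference there was at Vmn1r176, which had -2.22 and -1.88 in auxin cells, against -1.47 and -1.87 in control cells (difference -0.38, from -0.18 without the first control replicate to -0.58 without the second). Groups were apart at Vmn1r59, Vmn1r63, Vmn1r79, Vmn1r180 and Vmn1r176, and overlapped at Vmn1r71.

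In 13A, Vmn1r218 had -0.22 and -0.09 in auxin cells, against -0.57 and -0.50 in control cells (difference 0.38), and Vmn1r191 had -0.11 and -0.10 in auxin cells, against 0.24 and 0.09 in control cells (difference -0.27). In 17A, Vmn1r233 had -1.08 and -1.06 in auxin cells, against -1.64 and -1.12 in control cells (difference 0.31, but 0.045 without the first control replicate), while the most negative was Vmn1r224 (-0.21). In 6B, the extremes were Vmn1r34 (0.36, and 0.19 without the second auxin replicate), with -0.82 and -0.47 in auxin cells against -1.05 and -0.95 in control cells, and Vmn1r32 (-0.25, and -0.13 without the first control replicate). None of these was called, and the solitary Vmn1r1, at a difference of 0.77 (SE 0.20), had a limma adjusted p of 0.175.

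No member and no cluster lay in the 63 early-to-late or the 22 late-to-early regions of the authors' deposited table. The share of all genes or bins in these regions is not given here, so this absence cannot be set against a background. Members without a score have no window near them.

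Genes linked to vomeronasal neurons, of the basal layer as well as the apical one, were scored in the same cells. Of a list of 34 such genes, chosen with earlier results of these data known, all 34 had a score, and 18 were early, 5 middle and 11 late. Over all genes 67.1% were early, 9.02% middle and 23.9% late. None was called in either direction, as 0% of all genes were, and 4 of the 34 had an unadjusted p under 0.05, where 17.1% of all genes did. The median difference was 0.046, against -0.00043 over all genes. Trpc2, the channel of these neurons, had 2.98 and 2.82 in auxin cells, against 2.71 and 3.67 in control cells. Gnai2, the G protein subunit, had 3.50 and 3.71 in auxin cells, against 3.70 and 3.22 in control cells. Both signalling genes were thus early in all 4 profiles, and their groups overlapped.

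Omp, a marker of mature olfactory and vomeronasal neurons, had 1.14 and 1.50 in auxin cells, against 1.32 and 1.19 in control cells. Meis2, a transcription factor of the apical neurons, had -0.50 and -0.73 in auxin cells, against -0.38 and -0.36 in control cells. The largest positive difference was at Tfap2e, a transcription factor of the basal neurons, with 3.51 and 3.64 in auxin cells, against 3.10 and 2.81 in control cells (difference 0.62, SE 0.22, limma adjusted p = 0.238). The largest negative one was at Gap43, a growth-cone protein of immature neurons. It had -2.01 and -1.82 in auxin cells, against -0.64 and -0.89 in control cells (difference -1.15, SE 0.21, limma adjusted p = 0.172), and in the trended, robust fit it was the only one of the 34 called (later, adjusted p = 0.0152), a share near the 3.3% of all genes called later in that fit.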

How the data were processed

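The authors deposited timing scores, 1 column per replicate and group, at 316864 windows on a 6-kb grid of mm10, quantile normalized per the file headers' names. All 4 columns hold the same distribution, which hides any genome-wide shift. Per the labels' protocols, BrdU was given for 2 hours, propidium iodide sorting separated early from late S phase, and labelled DNA was immunoprecipitated. The submitters' processing notes list Bowtie2, SAMtools and bedtools; the sources used here give neither settings, nor the score formula, nor the treatment of repeats. Columns were matched to groups by name.

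A gene's score is the mean of its windows, or the nearest window within 50 kb, with RefSeq GRCm38.p6 coordinates. Genes and 50-kb bins (at least 3 windows) were fitted with limma 3.58.1 in R 4.3.3 (lmFit and eBayes, treatment as the only term, 2 against 2 profiles, two-sided) and tested on simulated data; Benjamini-Hochberg adjustment ran over all genes or bins. Cluster means were compared by exact permutation. Upstream stretches were compared by edit distance in Python 3.11.15. Replicate numbers were taken to be names only, since deviations of same-numbered profiles correlated by 0.10 over genes and 0.038 over bins. Members and lists were chosen with earlier results of these data known. Named genes are, per cluster, the largest difference in each direction, the earliest and the latest member, and all solitary or called members. The rule also named the 3 pairs with the closest proteins; no protein sequences were used here, and upstream identity is given in their place. Alternatives varied the windows, centring, bins, variance, replicate block and profiles. Genes named as neighbours in an array were chosen after their values were seen. The authors' q-values were not used.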

Additional observations from a re-analysis of the deposited data

How the results depend on the processing

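Receptor genes called numbered 0 under 10 alternatives run as planned, namely genes that overlap a window, genes with at least 3 windows, windows within 25 kb, centring on the median of all genes, the replicate block, a minimum difference of 1, and each of 4 profiles left out. The minimum difference was a further limit on the main calls, which numbered 0, so its outcome was fixed in advance. The trended, robust variance called 4, and that fit called 1 without the first auxin replicate, 3 without the second, 2 without the first control replicate and 2 without the second. Cluster bins called were 0 over all bins with no minimum of windows, 0 in 25-kb bins, 4 in 100-kb bins and 14 with the trended, robust variance. The main call in 7E was lost with any 1 profile left out. Shares over all genes or bins stand above for the main and the trended, robust fits, and for the block and 100-kb fits of bins. For the other alternatives such shares are not given here. The replicate block, which gave 9 bins, changed no gene call, and whether the replicate numbers pair the cultures is unknown. The median difference was 0.38 over the 3 genes with at least 3 windows, and 0.096 to 0.15 with a profile left out. The median score, -1.67 as the mean over the profiles, was -1.50 for genes that overlap a window and -0.65 for those with at least 3. The 7C difference was -0.025 within 25 kb of members and 0.38 as a median of windows; the 7D difference was -0.083 as a median of windows and -0.0060 to 0.24 with a profile left out; the other 8 clusters kept their sign. Of 373 alternative values of 42 named genes, 16 at 11 genes turned sign. Many of the 373 could not turn, since the replicate block, the trended, robust variance and limits on window number leave a gene's difference unchanged. The replicate block leaves cluster differences unchanged too. With a profile left out, the differences ran from -0.068 to 0.16 at Vmn1r4, -0.25 to 0.36 at Vmn1r15, -0.16 to 0.021 at Vmn1r40, -0.42 to 0.39 at Vmn1r55 (0.025 when centred), -0.030 to 0.76 at Vmn1r71, -0.28 to 0.48 at Vmn1r81, -0.33 to 0.21 at Vmn1r188, -0.49 to 0.14 at Vmn1r202, -0.51 to 0.081 at Vmn1r224, -0.062 to 0.28 at Vmn1r226 and -0.79 to 0.24 at Vmn1r238. The cause was not tested. Depth is unknown, and a receptor gene mostly rests on 1 window.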
